A study of Mus musculus with 30 samples.

Results

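The interleukin 12, 15, 27, 10 and 6 axes were followed through 10 genes, of which Il12a, Il12b, Il27, Il15, Il10 and Il6 encode secreted cytokine chains, and Il12rb1, Il15ra, Il10ra and Il6ra encode receptor chains. They were chosen by symbol and found by matching the Ensembl identifiers of the deposited count table to these symbols, and each symbol matched 1 of the 54146 gene identifiers. RNA-seq of polyA RNA was done in J774A.1, an established mouse macrophage-like cell line, with 5 single-cell-derived clonal lines. WT1, WT2 and WT3 were expanded from unedited J774A.1 cells, and KO1 and KO2 carried a homozygous CRISPR deletion of B2_Mm2.Dicer1, a transposable element inside an intron of Dicer1. Each clone was left untreated (UT) or given 100 ng/mL mouse interferon gamma (IFNG) for 4 h, and 3 libraries were made from each clone in each state (30 in all). No stimulus other than IFNG was used in these libraries.

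Each genotype rested on few clones, the WT clones did not go through electroporation, and genotype and the editing procedure cannot be told apart. The labels do not say whether the 3 libraries of a clone came from separate cultures, so p-values for a clone measure the spread between these libraries, which may be technical. Library totals ran from 15566122 to 37992642 counts (median 23682134). Dicer1, the host gene of the deleted element, averaged 105 to 128 CPM in untreated WT clones, 71.5 ± 1.30 CPM (SD, n = 3) in untreated KO1 and 105 ± 3.65 CPM in untreated KO2. The KO against WT log2FC of Dicer1 was -0.43 untreated (edgeR adjusted p = 0.00689) and -0.80 with IFNG (adjusted p = 1.35e-05). All 7 macrophage markers exceeded 1 CPM, and their summed level ran from 3920 CPM in a WT1 library to 6696 CPM in a KO1 library. Untreated clone means ran from 10.2 to 283 CPM for Adgre1 and from 868 to 2564 CPM for Lyz2, and with IFNG Cd14 fell by 0.38 to 0.48 on the log2 scale and Fcgr1 rose by 2.09 to 2.41 in 5 of 5 clones. What part these markers had in the results below was not tested. In bulk RNA, fewer cells expressing a gene and less RNA per cell cannot be told apart. The lists of T cell, B cell and NK cell markers stayed under 0.181 CPM in sum in every library, while Zbtb46, S100a8 and Pdgfra, from the dendritic cell, neutrophil and fibroblast lists, reached 1 CPM. The treatment showed in Irf1, a transcription factor induced by IFNG, which rose in 5 of 5 clones by a log2FC of 4.97 to 5.33.

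Macrophages use these cytokines to set the behaviour of lymphocytes and of other macrophages. IL-12 is a pair of chains, p35 from Il12a and p40 from Il12b, and IL-27 is a pair of p28 from Il27 and EBI3. Activated macrophages are known to need a microbial signal for much of their IL-12 and IL-6 production, and IFNG is known to enhance it. IL-15 is held on the cell surface by its receptor alpha chain and is shown from there to NK and T cells that carry the other receptor chains. IL-10 acts back on macrophages as a brake, through a receptor of an alpha and a beta chain, and IL-6 signals through its alpha receptor and the shared chain gp130.

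The members fell into 3 classes of level. Levels are given as CPM, counts scaled to the library totals and to edgeR's TMM factors, and as RPKM, the same value per kilobase of exon, where different genes are compared. Il12a had 0 counts in all 30 libraries. Il12b, Il27 and Il6 had counts but stayed under 1 CPM in every library. The other 6 members, Il15, Il10, Il12rb1, Il15ra, Il10ra and Il6ra, reached 1 CPM in at least 1 library and were the members that passed the expression filter and were tested. The 4 members outside the test received no fold change from the main comparison.

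Both chains of IL-12 were undetected or nearly so with IFNG alone. Il12a (chr3:68690644-68698547, plus strand, mm10) was not seen among the 707940672 counts of all libraries. A count of 0 allows a level of up to 0.00424 CPM over all libraries pooled (3 counts, covering counting error only). Over the 15 IFNG libraries this floor was 0.00884 CPM. Within single libraries the same floor of 3 counts stood between 0.079 and 0.193 CPM. Il12b (chr11:44400063-44414033, plus strand) had 1 count, in 1 of the 3 WT3 IFNG libraries, and 0 counts in the other 29. Thus at this depth neither chain of IL-12 showed a detectable response in any clone, and no fold is given for them.

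Il27, the specific chain of IL-27 (chr7:126589010-126594941, minus strand), was present as a few fragments. The 15 untreated libraries held 0 to 5 counts each (median 2, 33 in all), and the 15 IFNG libraries held 1 to 10 counts each (median 5, 73 in all). In KO1 the counts were 1, 3 and 3 untreated and 10, 4 and 8 with IFNG. In WT1 they were 4, 4 and 2 untreated and 6, 5 and 9 with IFNG. In WT2 and KO2 the treatments overlapped. In WT3 the counts were 1, 0 and 1 untreated and 3, 2 and 1 with IFNG, which met at 1 count and did not overlap in CPM. The highest level in any library was 0.366 CPM. When no expression filter was applied, Il27 had a positive log2FC in every clone, from 0.80 to 1.73, and it passed the test in none, with the lowest edgeR adjusted p of 0.0528 in KO1 and an unadjusted p under 0.05 in 2 clones (KO1 and WT1). Il27 shares 103 of its 1021 exon bases with Apobr on the opposite strand, and reads were counted by strand. Apobr had 65409 counts over all libraries and Il27 had 106. Whether fragments of Apobr assigned to the wrong strand entered the counts of Il27 was not tested.

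Il6 (chr5:30013114-30019981, plus strand) was scarcer still, with 56 counts over all libraries against 106 for Il27. Its counts followed the clone more than the treatment. WT1 held 6, 4 and 2 counts untreated and 4, 1 and 4 with IFNG. KO2 held 6, 3 and 4 counts untreated and 11, 5 and 2 with IFNG. WT2, WT3 and KO1 held 0 or 1 count in every library of either treatment. Without the expression filter the level of Il6 differed among the 5 clones in untreated libraries (edgeR adjusted p = 0.00158) and in IFNG libraries (adjusted p = 0.000764), and the IFNG response passed the test in 0 of 5 clones, with adjusted p-values from 0.607 to 0.974 and 0 clones at an unadjusted p under 0.05.

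**Figure D1:**
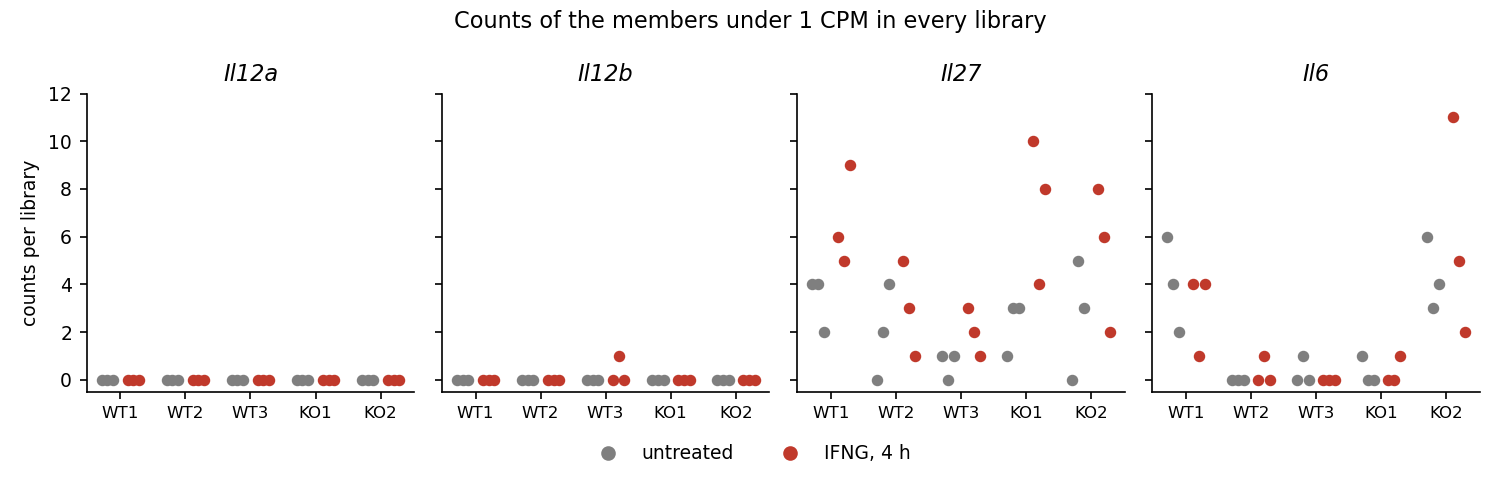
Counts per library (y axis, raw counts) of the 4 members that stayed under 1 CPM, by clone (x axis), with untreated libraries in grey and IFNG libraries in red. Il12a is at 0 throughout and Il12b at 0 but for 1 count, Il27 lies at 0 to 10, and Il6 is above 1 count only in WT1 and KO2.

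Il15, the cytokine that supports NK and memory T cells, rose with IFNG in 5 of 5 clones. The gene lies at chr8:82331632-82403222 on the minus strand. In WT1 its level was 34.5, 26.7 and 25.8 CPM untreated and 52.0, 60.4 and 69.2 CPM with IFNG. In WT2 it was 9.74, 11.4 and 11.8 CPM untreated and 32.6, 33.1 and 32.7 CPM with IFNG. The WT3 libraries gave 11.2, 10.97 and 12.2 CPM untreated and 35.2, 34.7 and 35.3 CPM with IFNG. Untreated WT2 and WT3 thus started well below WT1, and their IFNG libraries reached about the level of the highest untreated WT1 library. KO1 read 27.97, 21.99 and 27.3 CPM untreated and 56.8, 63.8 and 66.3 CPM with IFNG. KO2 read 23.4, 29.2 and 23.2 CPM untreated and 49.3, 46.2 and 55.4 CPM with IFNG. Untreated and IFNG libraries did not overlap in any clone. The log2FC was 1.06 ± 0.12 (SE) in WT1, 1.6 ± 0.07 in WT2, 1.63 ± 0.07 in WT3, 1.30 ± 0.09 in KO1 and 0.99 ± 0.09 in KO2, and the highest edgeR adjusted p was 8.6e-06. In fold terms the range was 1.99 to 3.10.

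Il10, the anti-inflammatory cytokine, showed the opposite direction where it passed the test. Il10 lies at chr1:131019845-131024974 on the plus strand. In WT3 its level was 4.12, 3.98 and 4.33 CPM untreated and 2.19, 2.46 and 2.29 CPM with IFNG. In WT2 it was 2.55, 2.87 and 2.70 CPM untreated and 1.87, 1.04 and 1.96 CPM with IFNG. KO2 gave 5.55, 6.001 and 3.96 CPM untreated and 3.48, 3.64 and 3.90 CPM with IFNG. In these 3 clones every IFNG library lay below every untreated library. WT1 read 6.86, 4.59 and 4.82 CPM untreated and 4.83, 4.34 and 6.46 CPM with IFNG, and KO1 read 2.28, 1.54 and 1.62 CPM untreated and 1.59, 2.17 and 1.599 CPM with IFNG. In both, the treatments overlapped. Il10 fell in WT3 (log2FC -0.83 ± 0.15, edgeR adjusted p = 0.000206), WT2 (-0.72 ± 0.22, adjusted p = 0.0129) and KO2 (-0.50 ± 0.15, adjusted p = 0.0205). The log2FC was -0.05 ± 0.18 in WT1 (adjusted p = 0.893) and -0.01 ± 0.21 in KO1 (adjusted p = 0.987). The calls in WT2 and KO2 were fragile. The WT2 call was lost with DESeq2 (adjusted p = 0.0525) and without 1 of 2 single libraries (adjusted p up to 0.0929), and the KO2 call was lost without any 1 of 4 single libraries (adjusted p up to 0.119).

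Among the 4 receptor chains that are members, Il15ra, which binds and presents IL-15, had the largest log2FC in each of the 5 clones. Il15ra lies at chr2:11705290-11734317 on the plus strand. Its level was 4.13, 4.45 and 4.96 CPM in untreated WT1 and 16.2, 14.3 and 17.2 CPM with IFNG. WT2 gave 2.81, 3.84 and 2.77 CPM untreated and 9.31, 11.2 and 11.6 CPM with IFNG, and WT3 gave 3.94, 3.68 and 2.94 CPM untreated and 10.9, 11.02 and 13.6 CPM with IFNG. In KO1 it was 3.19, 2.37 and 3.08 CPM untreated and 12.5, 12.6 and 13.4 CPM with IFNG. In every clone the IFNG libraries stood above the untreated ones without overlap, and this held for KO2 too, at 3.37, 3.62 and 2.65 CPM untreated and 12.1, 11.01 and 12.2 CPM with IFNG. The log2FC ran from 1.73 ± 0.13 in WT3 to 2.19 ± 0.11 in KO1, a fold of 3.31 to 4.55, and the highest edgeR adjusted p was 1.7e-08.

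The promoter windows of Il15ra are shown for description, beside those of Il12b, which had 1 count in all, and of Il6ra, which fell. Whether these sequences relate to the responses was not tested. Each window holds 250 bases before and 50 bases after an annotated start (RefSeq, GRCm38.p6), written 5′ to 3′ on the strand of the gene. Capitals mark the only matches to any motif searched, the 9-letter interferon regulatory factor core GAAANNGAA on either strand. The windows are chr2:11705043-11705342 and chr2:11705462-11705761 for the 2 Il15ra starts, chr11:44399813-44400112 for Il12b, and chr3:89913147-89913446 on the minus strand for Il6ra.
Il15ra upstream start: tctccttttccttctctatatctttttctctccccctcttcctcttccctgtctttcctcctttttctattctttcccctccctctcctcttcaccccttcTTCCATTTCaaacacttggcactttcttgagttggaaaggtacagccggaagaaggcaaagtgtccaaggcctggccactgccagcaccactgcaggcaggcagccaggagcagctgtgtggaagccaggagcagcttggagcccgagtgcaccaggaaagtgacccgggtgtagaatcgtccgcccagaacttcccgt
Il15ra downstream start: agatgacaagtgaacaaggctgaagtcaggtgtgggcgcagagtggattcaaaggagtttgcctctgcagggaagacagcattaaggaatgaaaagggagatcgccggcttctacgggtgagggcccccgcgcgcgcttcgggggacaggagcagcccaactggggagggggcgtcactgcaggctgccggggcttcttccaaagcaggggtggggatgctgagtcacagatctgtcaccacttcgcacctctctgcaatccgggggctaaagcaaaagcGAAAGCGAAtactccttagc
Il12b: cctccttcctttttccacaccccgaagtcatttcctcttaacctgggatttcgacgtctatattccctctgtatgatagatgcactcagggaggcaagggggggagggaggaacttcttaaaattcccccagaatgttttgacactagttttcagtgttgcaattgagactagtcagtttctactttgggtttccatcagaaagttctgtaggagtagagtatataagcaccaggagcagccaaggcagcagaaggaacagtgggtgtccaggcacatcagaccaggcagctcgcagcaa
Il6ra: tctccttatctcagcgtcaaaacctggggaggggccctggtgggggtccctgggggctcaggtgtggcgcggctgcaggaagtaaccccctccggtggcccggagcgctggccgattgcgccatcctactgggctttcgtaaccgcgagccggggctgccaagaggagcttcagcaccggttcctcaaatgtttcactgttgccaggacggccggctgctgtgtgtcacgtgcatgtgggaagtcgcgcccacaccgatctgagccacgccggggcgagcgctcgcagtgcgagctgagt

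The core was present once at each Il15ra start. At the upstream start it was on the reverse strand and began 149 bases before the start, and at the downstream start it was on the forward strand and began 30 bases after it. It was absent from the windows of Il12b, Il6ra, Il6 and both starts of Il12a. The GAS core TTCNNNGAA, known from promoters that answer IFNG, and the longer interferon response core (GAAANNGAA followed by A) had no match in any of the 7 windows of the 5 members with an entry (Il12a, Il12b, Il6, Il15ra and Il6ra). Over all 32851 promoter windows of this length, 8.56% held GAAANNGAA, 8.30% held TTCNNNGAA and 3.44% held the longer core, every copy of which contains GAAANNGAA. One of the 2 Irf1 windows held TTCNNNGAA, and the Socs1 window held 2 overlapping copies of the longer core. The 9-letter core was chosen after the windows had been read. A match here describes letters in a window and no bound site.

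Il12rb1, the chain shared by the IL-12 and IL-23 receptors, was the scarcest of the tested members and the one that differed most between clones. Il12rb1 lies at chr8:70808449-70821424 on the plus strand. WT1 read 2.31, 2.81 and 3.09 CPM untreated and 9.32, 6.68 and 7.93 CPM with IFNG. WT2 read 0.729, 1.48 and 1.57 CPM untreated and 2.05, 1.84 and 1.84 CPM with IFNG, and WT3 read 0.710, 0.814 and 0.722 CPM untreated and 2.77, 2.07 and 1.76 CPM with IFNG. The KO clones were lower when untreated. KO1 read 0.290, 0.237 and 0.270 CPM untreated and 1.05, 1.16 and 0.844 CPM with IFNG. KO2 gave 0.659, 0.659 and 0.302 CPM untreated and 2.08, 2.27 and 1.35 CPM with IFNG. With IFNG, KO1 lay below the WT clones and KO2 overlapped WT2 and WT3. IFNG libraries lay above untreated libraries in all 5 clones. Il12rb1 rose in WT1 (log2FC 1.52 ± 0.15, edgeR adjusted p = 3.3e-06), WT3 (1.59 ± 0.24, adjusted p = 4.1e-05), KO1 (1.94 ± 0.31, adjusted p = 0.000221) and KO2 (1.85 ± 0.28, adjusted p = 0.000135). In WT2 the log2FC of 0.62 ± 0.26 did not pass (adjusted p = 0.0711). In KO1 and KO2, Il12rb1 passed the expression filter through its IFNG libraries, since 0 and 2 of the 3 untreated libraries reached the filter's level, so its calls there were not independent of the filter. Without the filter the log2FC was 1.93 in KO1 and 1.86 in KO2.

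Il10ra, the ligand-binding chain of the IL-10 receptor, was the most abundant member per length, with clone means of 15.4 to 33.9 RPKM untreated and 25.2 to 42.1 RPKM with IFNG. Il10ra lies at chr9:45253837-45269149 on the minus strand. WT1 had 124, 113 and 119.7 CPM untreated and 142, 131 and 169 CPM with IFNG. WT2 had 54.5, 51.6 and 55.5 CPM untreated and 84.8, 84.98 and 94.9 CPM with IFNG, and WT3 had 56.2, 55.9 and 60.2 CPM untreated and 90.8, 96.7 and 94.1 CPM with IFNG. WT1 was the highest clone in both conditions, and its IFNG libraries cleared its untreated ones by the smallest relative margin. KO1 had 80.4, 63.3 and 75.1 CPM untreated and 97.3, 101 and 121 CPM with IFNG, and KO2 had 81.2, 91.0 and 77.8 CPM untreated and 120.3, 110.2 and 127 CPM with IFNG. Il10ra rose in 5 of 5 clones, with a log2FC of 0.30 ± 0.08 in WT1 (edgeR adjusted p = 0.0174), 0.73 ± 0.05 in WT2, 0.72 ± 0.05 in WT3, 0.58 ± 0.09 in KO1 and 0.51 ± 0.06 in KO2. The WT1 call was lost without 1 untreated library (adjusted p = 0.0687).

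Il6ra, the IL-6 binding chain, fell in 5 of 5 clones. Il6ra lies at chr3:89864059-89913196 on the minus strand. In WT3 it went from 88.5, 85.7 and 88.7 CPM untreated to 52.7, 53.6 and 49.8 CPM with IFNG. In WT2 it went from 79.2, 85.3 and 78.7 CPM to 52.6, 56.9 and 53.8 CPM, and in WT1 from 65.0, 64.6 and 63.8 CPM to 57.8, 55.5 and 54.7 CPM. The WT clones differed in the untreated state and lay close together with IFNG. KO1 went from 78.4, 85.2 and 80.9 CPM to 65.6, 66.9 and 64.3 CPM, and KO2 from 91.8, 89.7 and 90.9 CPM to 74.0, 76.0 and 72.1 CPM. No clone's treatments overlapped. The log2FC was -0.74 ± 0.05 in WT3, -0.56 ± 0.05 in WT2, -0.30 ± 0.05 in KO2, -0.28 ± 0.05 in KO1 and -0.21 ± 0.06 in WT1 (edgeR adjusted p = 0.0179 in WT1 and at most 0.000447 in the others). In WT1 the call was lost without either of 2 single untreated libraries (adjusted p = 0.09 and 0.0606).

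**Figure D2:**
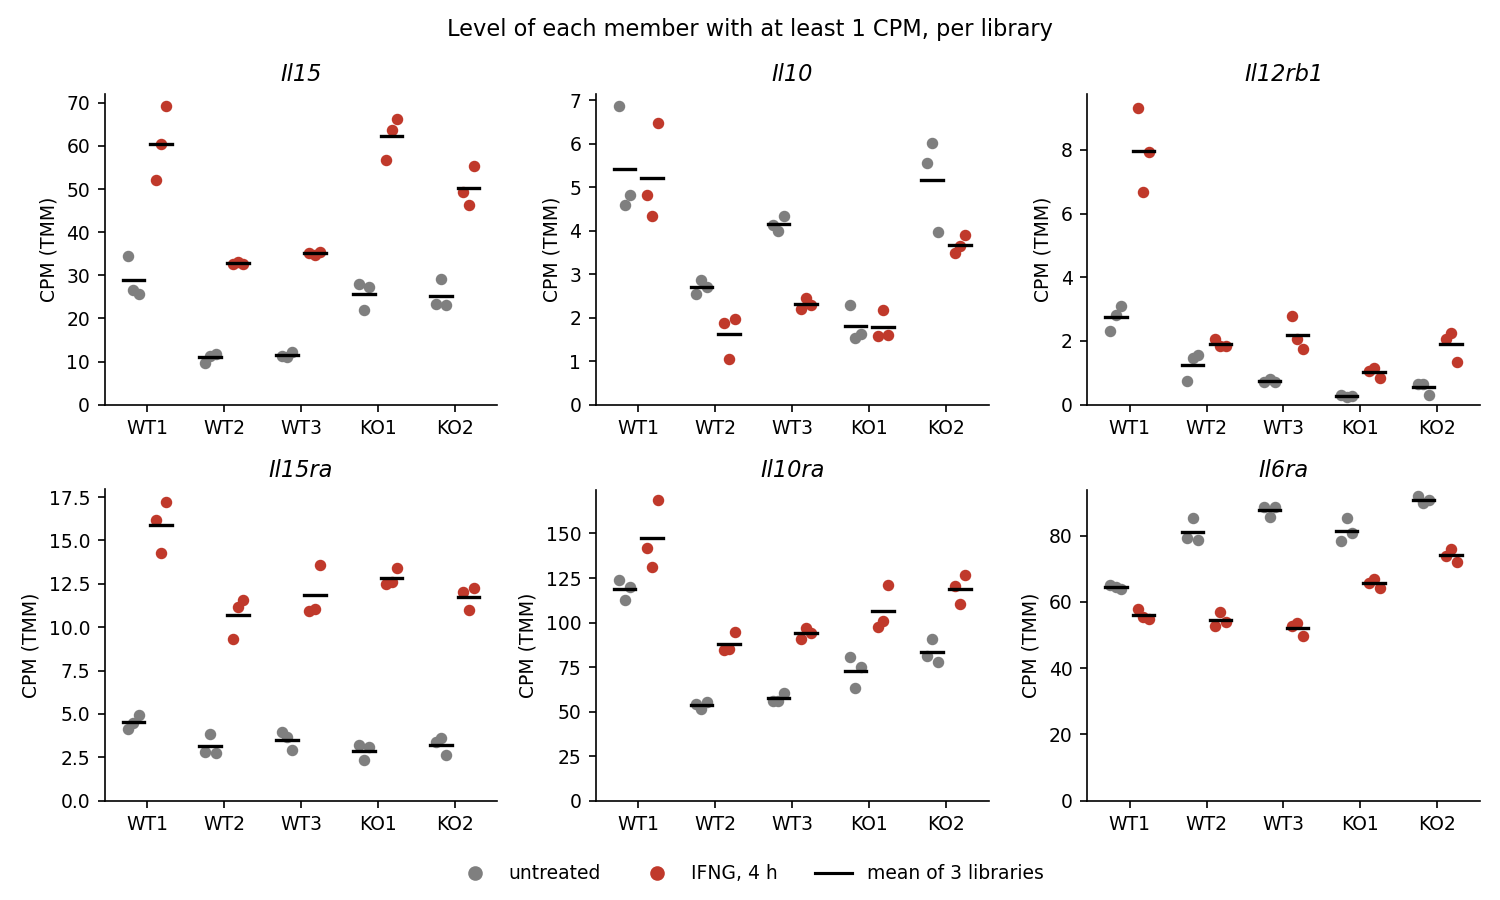
CPM per library (y axis, linear, from 0) for the 6 members that reached 1 CPM, by clone (x axis), with grey points for untreated and red points for IFNG libraries and a black bar for the mean of 3 libraries. Red points lie above grey in every clone for Il15, Il15ra, Il12rb1 and Il10ra and below grey in every clone for Il6ra, while for Il10 they lie below in WT2, WT3 and KO2 and overlap in WT1 and KO1.

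Counted over members, 4 of the 6 tested were higher with IFNG in WT1 and 1 was lower, against 11.8% and 9.47% of all genes tested in that clone. The counts were 3 higher and 2 lower in WT2 (17.4% and 17% of all genes tested), 4 and 2 in WT3 (18.6% and 17.5%), 4 and 1 in KO1 (16.2% and 13.2%), and 4 and 2 in KO2 (13.9% and 13.2%). The median log2FC of the 6 tested members was 0.67 to 1.15 over clones, and the median of all genes tested lay between -0.01 and 0.00. In KO1 and KO2 the counts and medians include Il12rb1, which passed the filter there through its IFNG libraries. The members were chosen with earlier results of these data known.

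**Figure D3:**
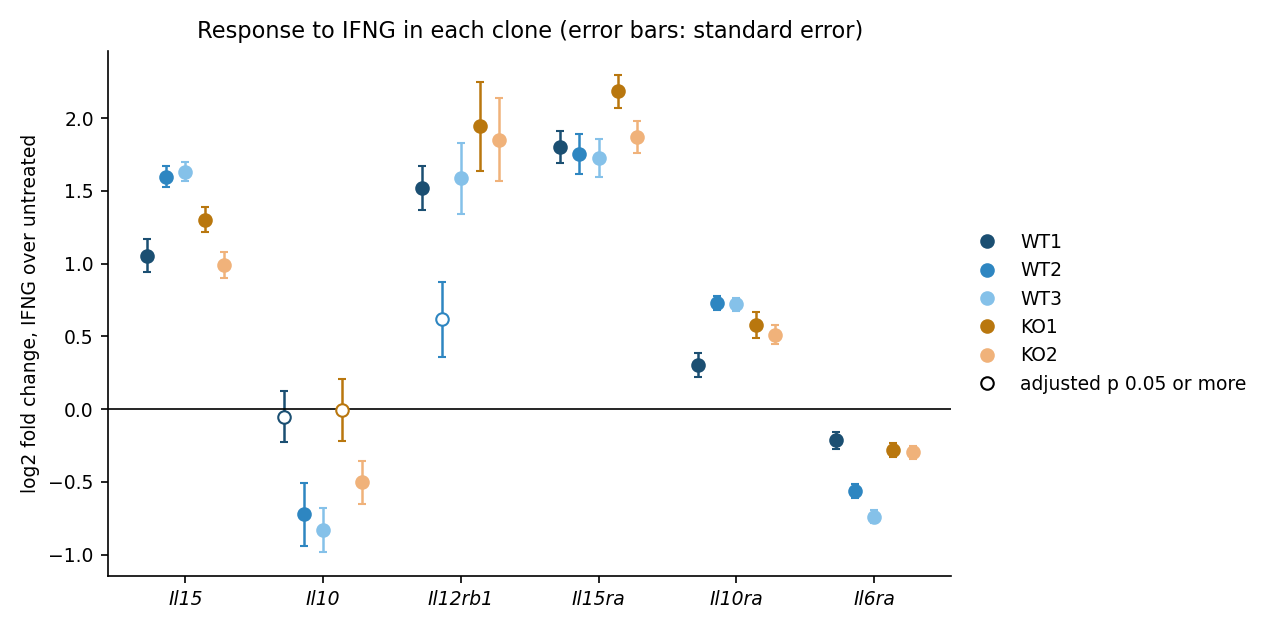
The log2 fold change of IFNG over untreated libraries (y axis) for the 6 tested members (x axis) in each clone (colour), with bars for the standard error of the edgeR fit and open points where the adjusted p was 0.05 or more. Il15ra clusters between 1.73 and 2.19, Il6ra lies below 0 in all 5 clones, and the 3 open points are Il10 in WT1 and KO1 and Il12rb1 in WT2.

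Whether the response differed between clones was tested over all 30 libraries with clone-by-treatment terms. Il6ra passed (edgeR adjusted p = 4.1e-07) and Il15 passed (adjusted p = 0.0233), so 2 of 6 tested members did, against 3.68% of all genes tested. Il6ra fell most in WT3 and WT2, and Il15 rose most in these same 2 clones. The Il6ra result passed without any one clone and without any one library. The Il15 result was lost without clone WT2, WT3 or KO2 (adjusted p = 0.0905, 0.186 and 0.0536) and without 1 of 4 single untreated libraries (adjusted p = 0.0502 to 0.0569). Adjusted p-values were 0.19 for Il10ra, 0.227 for Il10, 0.232 for Il12rb1 and 0.684 for Il15ra. For Il10ra the test passed with DESeq2 (adjusted p = 0.0497), without KO1 (0.0348), without 1 WT1 IFNG library (0.0195) and with no expression filter (2.3e-06), and for Il10 it passed with no filter (0.0221).

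The clones also differed in the level of the members. All 6 tested members passed the test among clones in untreated libraries, where 73.2% of all genes tested passed, and all 6 passed in IFNG libraries, where 69.3% did. In the untreated test Il12rb1 passed the expression filter through its WT libraries, so that call was not independent of the filter. Il12rb1 had the widest spread, with the highest clone mean 10.3-fold above the lowest untreated (WT1 over KO1) and 7.84-fold with IFNG. For Il15 the untreated order was WT1, KO1, KO2, WT3 and WT2, in which the first 3 overlapped in their libraries, the last 2 overlapped, and KO2 stood clear of WT3. With IFNG the Il15 order was KO1, WT1, KO2, WT3 and WT2, and the overlaps were those of KO1 with WT1 and of WT1 with KO2. For Il10 the untreated order was WT1, KO2, WT3, WT2 and KO1, with WT1, KO2 and WT3 overlapping their neighbours. With IFNG it was WT1, KO2, WT3, KO1 and WT2, and of these neighbours KO1 and WT2 overlapped. Il15ra was narrowest but for Il6ra, with WT1 above the rest in both conditions and the remaining neighbours overlapping, and its test among clones was lost without WT1 (adjusted p = 0.377 untreated and 0.166 with IFNG). For Il10ra the order was WT1, KO2, KO1, WT3 and WT2 in both conditions, with KO2 overlapping KO1 in both and WT3 overlapping WT2 with IFNG. The untreated order of Il6ra was KO2, WT3, KO1, WT2 and WT1, in which KO1 and WT2 overlapped, and with IFNG both KO clones stood above the 3 WT clones, of which WT1 overlapped WT2 and WT2 overlapped WT3.

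The KO clones were then compared with the WT clones, with the 6 KO and 9 WT libraries of a treatment as replicates. Untreated, 1 of the 6 tested members passed, against 26.6% of all genes tested, and with IFNG 2 of 6 passed, against 23.9%. Il12rb1 was lower in KO clones. Untreated WT libraries ran from 0.710 to 3.09 CPM and KO libraries from 0.237 to 0.659 CPM, without overlap (log2FC -1.98 ± 0.43, edgeR adjusted p = 0.00272). Here Il12rb1 passed the expression filter through its untreated WT libraries, so this untreated call was not independent of the filter. With IFNG the ranges were 1.76 to 9.32 and 0.844 to 2.27 CPM and overlapped (log2FC -1.45 ± 0.44, adjusted p = 0.0238). This rested on single clones, since the untreated difference was -1.57 without KO1 (adjusted p = 0.0924) and the IFNG difference was -1.09 without KO1 (adjusted p = 0.285) and -0.47 without WT1 (adjusted p = 0.106). Il6ra was higher in IFNG-treated KO clones, with KO libraries at 64.3 to 76.0 CPM and WT libraries at 49.8 to 57.8 CPM (log2FC 0.37 ± 0.04, adjusted p = 2.7e-05), and this passed without any one clone. With counts summed per clone, so that 3 WT clones met 2 KO clones, no member passed, with adjusted p-values of 0.359 and 0.516 for Il12rb1 and 0.276 for Il6ra with IFNG.

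Whether Il15 was called between genotypes depended on WT1. Untreated Il15 libraries of WT1 overlapped those of both KO clones, and those of WT2 and WT3 lay below. The log2FC of KO over WT was 0.56 ± 0.27 untreated (edgeR adjusted p = 0.144) and 0.40 ± 0.17 with IFNG (adjusted p = 0.106). Without WT1 it was 1.19 untreated (adjusted p = 2.2e-08) and 0.72 with IFNG (adjusted p = 4.0e-06). Il10ra behaved the same way, at 0.02 ± 0.22 and 0.04 ± 0.14 with all clones and 0.49 and 0.31 without WT1 (adjusted p = 3.7e-05 and 0.0012). Without WT1, 6472 genes passed KO against WT untreated and 5992 with IFNG, against 3689 and 3258 with all clones. Libraries were the replicates in these refits too, so their p-values do not measure the spread between clones. The test of a difference of IFNG response by genotype passed for none of the 6 tested members (0 of 6 by edgeR, against 1.02% of all genes tested, and 1 of 6, Il6ra, at an unadjusted p under 0.05, where DESeq2 also called 0). The lowest adjusted p was 0.266, for Il6ra, whose difference of response was 0.20 ± 0.07 on the log2 scale with all clones and 0.36 without WT1 (adjusted p = 8.2e-06), and for Il15 the difference was -0.25 ± 0.12 with all clones (adjusted p = 0.544) and -0.47 without WT1 (adjusted p = 0.00396). Over all genes tested, 564 passed this test without WT1, against 151 with all clones.

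The partners of the members were measured to see which pairs had both chains, with levels compared in RPKM. Ebi3, the partner of p28 in IL-27, was abundant at clone means of 17.997 to 23.2 RPKM untreated and 18.3 to 22.3 RPKM with IFNG, and its IFNG response did not pass the test in any clone (edgeR adjusted p = 0.696 to 0.865, with 0 clones at an unadjusted p under 0.05). Il27 itself stood at 0.0297 to 0.115 RPKM untreated and 0.0962 to 0.303 RPKM with IFNG, so that the second chain of IL-27 was scarce in both states. Il23a, which pairs with p40 in IL-23, stood at 0.0310 to 0.287 RPKM untreated and 0.00871 to 0.0503 RPKM with IFNG, and its counts in KO2 were 10, 10 and 11 untreated and 2, 0 and 3 with IFNG. Its IFNG libraries lay below the untreated ones in WT1, WT3 and KO2 and overlapped them in WT2 and KO1. The highest untreated mean was that of WT1, where the counts were 35, 8 and 10 untreated and 3, 0 and 3 with IFNG. WT3 held 3, 3 and 2 counts untreated and 0, 0 and 1 with IFNG. No test is given for Il23a, since it passed the filter in KO2 alone and there through its untreated libraries. Il12rb2, the second chain of the IL-12 receptor, was at 2.28 to 3.65 RPKM untreated and 3.04 to 5.25 RPKM with IFNG, above Il12rb1 at 0.0647 to 0.667 and 0.248 to 1.94 RPKM. Il12rb2 rose in 5 of 5 clones by a log2FC of 0.30 to 0.52 (highest adjusted p 0.00558). Il27ra, the specific chain of the IL-27 receptor, stayed at or under 0.0524 RPKM in clone means.

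For IL-15, ligand and alpha chain rose together while the signalling beta chain was nearly absent. Il15 stood at 4.85 to 12.8 RPKM untreated and 14.5 to 27.6 RPKM with IFNG, and Il15ra at 0.648 to 1.01 and 2.41 to 3.58 RPKM. Il2rb, the beta chain that signals for IL-15, had clone means of at most 0.00295 RPKM. Il2rg, the common gamma chain, rose in 5 of 5 clones by a log2FC of 0.43 to 0.83 (highest edgeR adjusted p 0.00342). For IL-10, the 2 receptor chains moved in opposite directions, since Il10ra rose in 5 of 5 clones and Il10rb, its beta chain, fell in 5 of 5 by 0.44 to 0.78 on the log2 scale (highest adjusted p 8.0e-06), from 18.6 to 24.996 RPKM untreated to 12.7 to 18.01 RPKM with IFNG. For IL-6, Il6st, the gene of gp130, fell in WT1, KO1 and KO2 (log2FC -0.28, -0.16 and -0.25, highest adjusted p 0.0212), and its log2FC was -0.05 in WT2 and -0.09 in WT3 (adjusted p = 0.534 and 0.146). The Il6st calls in WT1 and KO1 were each lost without at least 1 single library (adjusted p up to 0.111).

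**Figure D4:**
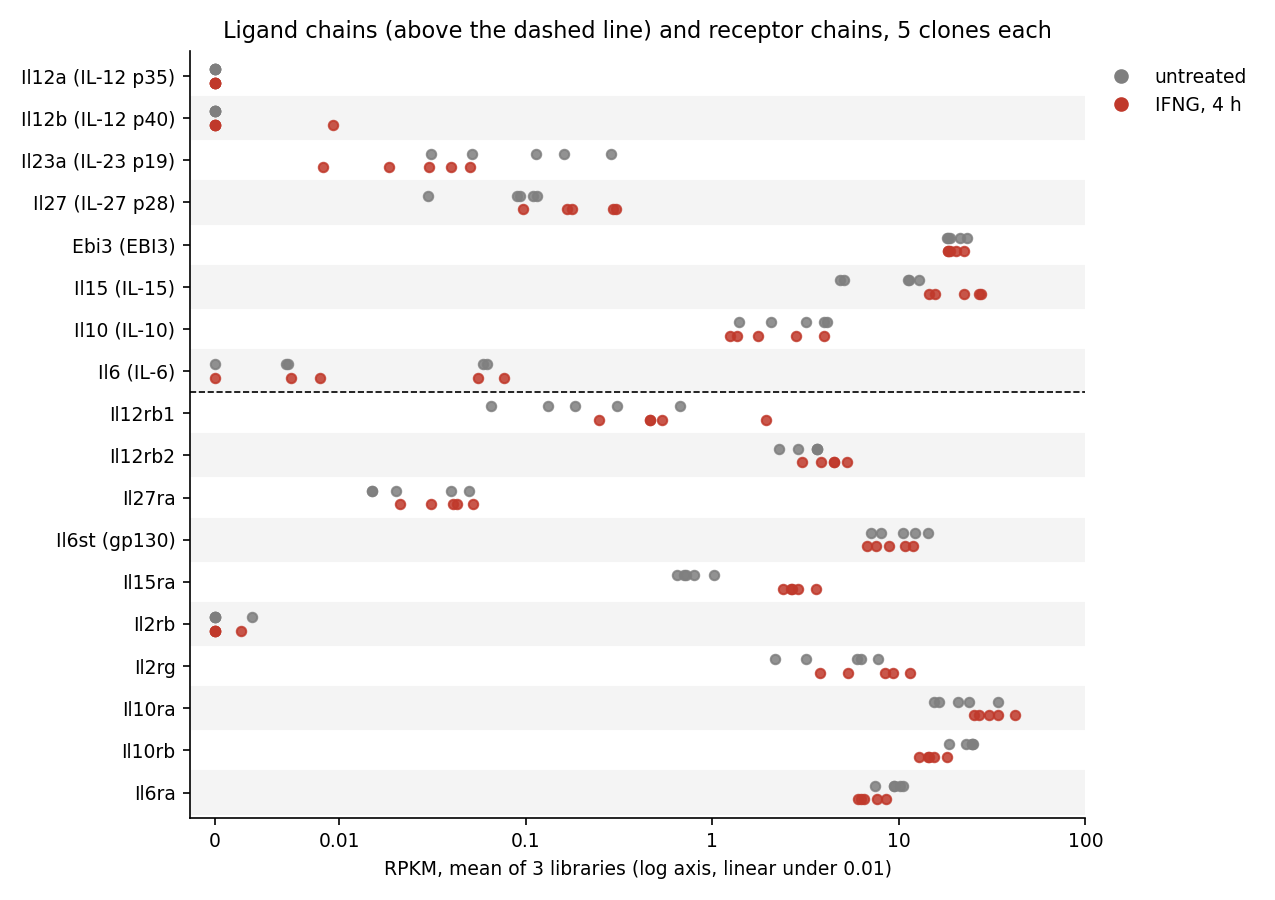
Clone means of RPKM (x axis, logarithmic and linear under 0.01) for the ligand chains and receptor chains of these cytokines (y axis), with 5 grey points for untreated and 5 red points for IFNG-treated clones per gene. Il12a, Il12b, Il6, Il2rb and Il27ra lie at the left, Ebi3, Il10ra and Il15 at the right, and red points lie to the right of grey for Il15 and Il15ra.

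Wider lists for these pathways held 54 genes besides the members. Of the 32 or 33 of them tested, 21 to 24 were higher and 3 or 4 lower with IFNG over the clones, with a median log2FC of 0.44 to 0.61. Of all genes tested, 11.8% to 18.6% were higher and 9.47% to 17.5% lower over the clones. These counts include genes that passed the filter only through the treatment in which they were high, such as Il23a in KO2. In the IL-12 family receptor list 2 of 3 tested genes rose in 4 clones and 1 in WT2. Il6st, also tested in this list, fell in WT1, KO1 and KO2. Il12rb1, which rose, passed the filter in KO1 and KO2 through its IFNG libraries. In the list of IL-15 and IL-2 receptor chains, Il15ra and Il2rg rose in 5 of 5 clones. Il2ra, the IL-2 receptor alpha chain, named after its values were seen, had untreated clone means of 0.0128 to 0.374 CPM and IFNG means of 0.209 to 3.24 CPM. It passed the filter in the WT clones alone, and there through the IFNG libraries, so no test is given for it. In the list of common gamma chain cytokines, Il15 rose in every clone, and Il7, also named afterwards, rose in WT1, WT3, KO1 and KO2 by 0.59 to 1.45, where the WT1 call was lost with DESeq2 (adjusted p = 0.0991) and without single libraries. In the IL-10 family, 4 of 10 genes had 0 counts in all libraries, and of all 54146 identifiers 29004 had at least 1 count. From this family only Il10, Il10ra, Il10rb and Il20rb (named afterwards) were tested. Within the IL-6 family, Lifr, the leukaemia inhibitory factor receptor, was the gene apart from Il6ra that passed in all clones (higher, log2FC 0.78 to 1.12).

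Of the 12 genes for the kinases, STATs and suppressors that act behind these receptors, 8 rose in all 5 clones by edgeR's test, and of the 12834 genes tested in all 5 clones 9.47% did. Socs1 in every clone, and Cish in every clone but WT1, passed the filter through the IFNG libraries. The largest rises were those of the feedback inhibitors, with a log2FC of 6.76 to 7.28 for Socs1, 4.54 to 6.38 for Socs3 and 4.63 to 5.78 for Cish. Of the 13 genes for transcription factors known to act on Il12b, Il27, Il15, Il10 or Il6, 6 rose in all clones and 1 (Fos, named afterwards) fell in all, as did 7.04% of all genes tested in all 5 clones. The leading ones were Irf1, Irf8 (2.23 to 2.55), which acts with Irf1 at the Il12b promoter in activated macrophages, Batf3 (0.83 to 1.13) and Cebpb (0.62 to 1.15). In these same libraries Il12b had its single count.

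The genes whose pattern was most like each member over the 10 group means of log2 CPM were listed for description, with clones and treatments shared by all points. They were Btg1 and Auh for Il15 (Pearson r 0.999 and 0.99 over 10 means), 3222401L13Rik and Col14a1 for Il10 (0.954 and 0.947), and Tigd2 and Polr3gl for Il12rb1 (0.978 and 0.95). For Il15ra they were Gna13 and Srgap2 (0.994 and 0.994), for Il10ra Trib1 and Snhg6 (0.981 and 0.977), and for Il6ra Fam118a and Zfp710 (0.959 and 0.956). Each pair had the highest Pearson r among 14869 other genes.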

How the data were processed

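PolyA-selected, strand-specific RNA-seq was analysed from 30 J774A.1 libraries. The authors trimmed reads, aligned them to mm10 with HISAT2 2.1.0 (reverse strand setting) and deposited counts of uniquely aligned fragments per gene, made with featureCounts 1.6.2 over the exons of a Gencode annotation. Per the file headers, fragments overlapping more than 1 gene were counted for each. Their own tests used DESeq2 1.26.0. Only the table of counts for all samples was used, and the other 13 tables were not used here. Column names carry the clone and treatment but no replicate number, so libraries are numbered only as names. The assignment of columns to WT2 and WT3 rests on the names of the clone tables. The 10 members and the pathway lists were chosen with earlier results of these data known.

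Counts were tested as deposited with edgeR 4.0.16 (TMM factors, filterByExpr, quasi-likelihood test, R 4.3.3), with Benjamini-Hochberg adjustment over all genes of a fit and a threshold of 0.05. Standard errors were obtained from the log2FC and the F statistic as |log2FC|/√F. IFNG responses were fitted per clone, differences of response over all 30 libraries, and levels and KO against WT within a treatment. A gene was called detected at 1 CPM in at least 1 library. RPKM values divide CPM by the deposited exon length. Floors of 3 counts cover counting error only. Depth was 15566122 to 37992642 counts per library. From each list, genes that passed in all 5 clones in the same direction were named, up to 4 by size of log2FC, together with the partner chains, Irf1, Gbp2b and Dicer1, and for each detected member the 2 genes with the highest Pearson r of log2(CPM + 0.5) over group means. The alternatives were DESeq2 1.42.0, RLE scaling, other filters, 1 joint fit, each library or clone left out, and counts summed per clone. Scripts were tested on simulated data. Promoter windows were taken from RefSeq (GRCm38.p6), where 5 of the 10 members had 7 entries. Results for a gene that the naming rule also took are not reported here.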

Additional observations from a re-analysis of the deposited data

Results flagged for a closer look

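Responses to IFNG that differed among the 5 clones, by edgeR's test of clone-by-treatment terms, are listed first. Among the members they were Il6ra (adjusted p = 4.1e-07, log2FC from -0.74 in WT3 to -0.21 in WT1) and Il15 (adjusted p = 0.0233, log2FC from 0.99 in KO2 to 1.63 in WT3). Among the genes measured beside them, Il10rb fell by 0.44 to 0.78 on the log2 scale (adjusted p = 0.0014). Socs3 rose by 4.54 to 6.38 (adjusted p = 1.8e-06) and Irf1 by 4.97 to 5.33 (adjusted p = 0.0152). Gbp2b, a guanylate-binding protein gene that answers IFNG strongly, rose by 8.39 to 9.86 (adjusted p = 2.0e-06). Dicer1, whose intron held the deleted element, rose in the 3 WT clones by 0.32 to 0.40 and did not pass in the KO clones (adjusted p of the difference among clones = 5.9e-05).

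By genotype, with KO against WT clones, the response differed for Il7 (edgeR adjusted p = 0.0473), Gbp2b (adjusted p = 0.000164) and Dicer1 (adjusted p = 5.5e-05). These tests take libraries as replicates, with 2 KO clones in all. Groups of 3 libraries were too small for a test of single outlying libraries.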

How the results depend on the processing

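Of the 328 alternatives for the members' clone responses, 312 kept direction and side of the threshold, 10 lost the call and 6 changed sign, all 6 for Il10 in WT1 and KO1, where leaving out 1 library gave log2FC from -0.23 to 0.14 and from -0.15 to 0.18. Il6st in WT2 likewise ranged from -0.11 to 0.0027. With 1 library left out, members called in WT1 were 3 to 5, and those differing among clones 1 to 3.

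The clone comparisons moved more. Genes whose response differed among clones numbered 547, against 919 with no filter and 319 without WT3, and members numbered 4 with no filter and 1 without WT2, WT3 or KO2. By genotype, the 151 genes became 384 with no filter, 564, 37, 82 and 21 without WT1, WT2, WT3 and KO1, and 1 with counts summed per clone, with 2 members called with no filter or without WT1. KO against WT gave 6472 genes untreated and 5992 with IFNG without WT1, 1674 and 1411 without KO1, and 1 and 1 with summed counts. Untreated members called were 0 at 10 counts or more in every library, 3 without WT1, 2 without WT2, WT3 or KO2, and 0 without KO1 or with summed counts. With IFNG they were 1 without KO1 and 0 with summed counts. The filter of 10 counts removed Il12rb1 from the untreated comparison before testing, since its untreated KO1 libraries held 7, 6 and 7 counts.

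Sign changes of uncalled differences were these. By genotype, Il10 gave -0.077 without WT3 and -0.070 without KO1, and Il10ra gave 0.039 without WT2 and 0.045 without WT3. Untreated KO against WT, Il10 gave 0.033 without WT1 and 0.33 without KO1 (with all clones it was -0.23, and without KO2 it was -1.20 and passed, adjusted p = 0.00874), and Il10ra -0.18, -0.15 and -0.087 without WT2, WT3 and KO2. With IFNG, Il10 gave 0.47 without WT1 and 0.24 without KO1, Il15ra 0.12 without WT1 and 0.0090 without KO2, and Il10ra -0.10, -0.064 and -0.037 without WT2, WT3 and KO2. The cause was not tested. Leaving out single libraries in the comparisons among clones, and the 9-letter motif, were chosen after seeing the data. By Spearman correlation 1 of the 12 most similar genes recurred. No paired analysis was possible because the columns carry no replicate numbers, and leaving out a replicate number across clones was not run. Depth limits Il12a, Il12b, Il27 and Il6, whose counts per library reached 11 at most.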
